A study of Mus musculus with 15 samples.

Results

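The 41 genes described here encode proteins of blood coagulation and of complement that circulate in plasma, the 3 chains of the first complement component C1q, and 3 complement proteins of myeloid cells. They were chosen by symbol as genes of these pathways, with earlier results of these data known, and all 41 were found among the 24411 genes of the files. Poly(A) RNA of mouse liver had been sequenced in 15 libraries: 4 labelled TdTomato, which served as controls, 6 labelled LATS KO (called LATS_KO here) and 5 labelled Yap OE (called YAP_OE). The series describes these as wild type, Lats knockout and Yap overexpression livers, and its title concerns inflammatory monocytes and cell proliferation induced by YAP. The genotype and treatment fields repeat only these names, so which Lats gene was deleted, the promoter or Cre driver, the age and the time point are not given in the sources used here. Whether each library is from its own animal is not stated, so every p-value measures the spread between libraries alone, which may be technical.

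Hepatocytes secrete most clotting factors and most complement components. In coagulation, the contact factors and the tissue factor pathway converge on factor X, which activates prothrombin, and thrombin then turns fibrinogen into fibrin, which plasmin dissolves. In complement, C1q or the mannose-binding lectins start a chain of proteases that cleaves C4, C2 and C3, and the terminal components C5 to C9 build a pore in the target membrane. C1q is the exception in liver, since macrophages make it, and the receptors C3ar1 and C5ar1 and the stabilising factor properdin (Cfp) are also myeloid products. The kinases LATS1 and LATS2 restrain the transcriptional coactivator YAP, which acts through TEAD factors.

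Depth ranged from 6166680 to 28225360 gene counts per library. In TdTomato 1, 78.5% of the reads were unmapped, and in LATS_KO 3, 89.9%, against 2.53% to 16.7% in the other 13 libraries; both also detected fewer genes (8501 and 9710, against at least 13372). Values are CPM, which are counts scaled to a common library size, on library sizes scaled by the TMM method. Yap1 was at 146 to 212 CPM in YAP_OE and at 94.9 to 115 CPM in TdTomato, a rise of 0.82 ± 0.17 (SE) on the log2 scale (adjusted p = 0.00433, edgeR). Lats1 was at 0, 44.5, 46.0 and 28.7 CPM in TdTomato and at 14.5, 10.5, 0, 27.4, 18.1 and 22.3 CPM in LATS_KO. The control at 0 was TdTomato 1, and all LATS_KO libraries lay below the other controls. The log2 difference was −0.94 ± 1.00 (adjusted p = 0.62, edgeR). Lats2 was at 0, 19.6, 19.1 and 17.4 CPM in TdTomato and at 29.2, 41, 7.67, 16.9, 17.3 and 14 CPM in LATS_KO, a log2 difference of 0.58 ± 0.75 (adjusted p = 0.695, edgeR). Neither gene was lower past the threshold in LATS_KO, and a count summed over all exons of a gene does not check a deletion of some of them. Each adjusted p below comes from the quasi-likelihood test of edgeR, adjusted by Benjamini-Hochberg over the 13055 genes tested, with a threshold of 0.05.

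In TdTomato livers the 35 hepatocyte members spanned a wide range of levels. Divided by exon length, Ahsg, which encodes the plasma glycoprotein fetuin-A, stood highest at 3992 ± 952 CPM per kb (SD, n = 4). The fibrinogen chains Fgg and Fga followed at 2887 ± 1162 and 2861 ± 1250 CPM per kb, then C3 at 2272 ± 962 and Fgb at 2048 ± 750. Fgg and Fga, and C3 and Fgb, lay within each other's spread. Plg, which encodes plasminogen, was next at 1262 ± 129 CPM per kb. At the low end of the hepatocyte members were F11 at 50.4 ± 13.2, Klkb1 at 45.7 ± 12.2 and the lectin pathway protease Masp1 at 9.13 ± 7.45 CPM per kb. The C1q chains and the myeloid members stood below all of these, between 0 and 1.04 CPM per kb. In the same controls the summed level of 12 hepatocyte markers was 133791 to 209012 CPM in TdTomato, and that of 12 macrophage markers 0.0774 to 15.4 CPM.

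Several members lie beside each other in the genome (positions are from GENCODE M21, on mm10). F7 and F10 are separated by 1498 bases on chromosome 8, and F11 and Klkb1 by 4657 bases elsewhere on that chromosome. The fibrinogen chains sit together on chromosome 3, C8b and C8a 11130 bases apart on chromosome 4, and the C1q chains within a second cluster on chromosome 4. Cfb and C2 are only 85 bases apart on chromosome 17. Promoter windows from RefSeq (GRCm38.p6, 250 bases before each start) were found for 32 of the 41 members. The windows below are the last 120 bases of those of F11 and Klkb1, the adjacent pair with the steepest falls among the coagulation genes, and of the 3 members that held the HNF1 motif.

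F11, chr8:45262032-45262151, minus strand: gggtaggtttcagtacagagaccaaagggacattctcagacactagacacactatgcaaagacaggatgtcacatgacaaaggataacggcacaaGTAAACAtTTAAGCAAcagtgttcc
Klkb1, chr8:45294836-45294955, minus strand: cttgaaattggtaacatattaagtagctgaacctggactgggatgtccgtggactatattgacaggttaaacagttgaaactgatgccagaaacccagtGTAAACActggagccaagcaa
Hc, chr2:35061413-35061532, minus strand: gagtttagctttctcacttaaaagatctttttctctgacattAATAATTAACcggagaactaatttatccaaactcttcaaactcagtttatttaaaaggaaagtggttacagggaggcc
F13b, chr1:139501587-139501706, plus strand: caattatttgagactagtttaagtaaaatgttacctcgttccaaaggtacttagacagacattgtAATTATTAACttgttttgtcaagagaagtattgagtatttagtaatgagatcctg
C4bp, chr1:130661619-130661738, minus strand: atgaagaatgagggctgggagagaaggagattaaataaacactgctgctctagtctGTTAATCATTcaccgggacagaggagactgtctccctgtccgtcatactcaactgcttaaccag

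All 5 are written 5′ to 3′ along the gene, and capitals mark motif matches on either strand. In F11 and Klkb1 the capitals GTAAACA are the reverse complement of the FOXA motif TGTTTAC, at 25 to 19 and 21 to 15 bases before the start. In F11 the C/EBP motif TTGCNNAA follows at 17 to 10 bases, also as its reverse complement. In Hc, F13b and C4bp the capitals mark HNF1, a liver factor, at 78 to 69, 55 to 46 and 64 to 55 bases before the start. HNF1 was held by 8.82% of the 34 member windows and by 0.371% of all 32851 windows, C/EBP by 26.5% against 9.56%, FOXA by 5.88% against 3.17%, the TEAD motif GGAATG by 17.6% against 12.6%, and PU.1 (GAGGAAG) by 5.88% against 10.6%. The HNF4 motif CAAAGTCC was in none of the member windows and in 1.2% of all. The starts are those of RefSeq. By GENCODE, Klkb1 reaches to 45294859, so its FOXA match lies inside the gene in that annotation. A match is a description of these letters and not a site.

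Across the 35 hepatocyte members, YAP_OE livers held lower transcript levels than TdTomato livers for 18 of them, and the lowest median was that of terminal complement. Of the 41 members, 18 were lower in YAP_OE, all of them hepatocyte members, where 10.8% of all genes tested were lower. Another 6 were higher, the C1q chains and the myeloid members, where 17.9% of all genes were higher. The median log2 fold change of the hepatocyte members was −1.15, and 33 of 35 lay below 0, while the median over all genes tested was 0.17. In 20 hepatocyte members every YAP_OE library was lower than every control, against 13.4% of all genes, and in 7 members (C2 and the 6 that rose) every one was higher, against 28.3%. In bulk tissue, fewer hepatocytes and less RNA per hepatocyte cannot be told apart. Beside this, 4 of 12 hepatocyte markers were lower in YAP_OE (Apoa2, Apob, Apoc3 and Cps1), and 11 of 12 lay below 0. Trf went the other way, with a log2 change of 0.48 (adjusted p = 0.285, edgeR). The 12 markers summed to 107647 to 177258 CPM in YAP_OE, most of it Alb, which changed by −0.17 (adjusted p = 0.813, edgeR). Of 9 stellate cell and fibroblast markers, 8 were higher in YAP_OE, with sums of 27.4 to 182 CPM against 0.0774 to 11.4 CPM in TdTomato, where Col1a1 had no count. Of 8 endothelial markers, 4 were higher, with sums of 125 to 204 CPM against 21.2 to 55.9 CPM. In LATS_KO, 11 of the 12 hepatocyte markers lay below 0, and 0 were lower past the threshold (2 at an unadjusted p under 0.05). There, 4 of 9 stellate cell and fibroblast markers and 3 of 8 endothelial markers were higher, where 10% of all genes were. Their sums in LATS_KO were 0 to 21.9 CPM and 30.4 to 310 CPM. The part of these markers in the result was not tested.

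The 6 regulators were Plg, Klkb1, Kng1 and Cpb2, of fibrinolysis and the kinin system, the anticoagulant Proc, and Ahsg, which belongs to neither system. The 8 early complement genes included the inhibitors C4bp and Cfi. By role, the 18 falls took in 5 of 8 clotting factors, 1 of 3 fibrinogen chains and 4 of 6 of these regulators. They also took in 2 of 4 lectin pathway genes, 1 of 8 early complement genes and 5 of 6 terminal complement genes. The median log2 fold changes of these groups were −1.46, −1.14, −1.26, −1.41, −0.21 and −2.64 in the same order. With library sizes that were not rescaled by TMM, a setting chosen after seeing the data, 13 members were lower and 8 higher in YAP_OE, beside 4.69% and 25% of all genes, with the median of all genes at 0.73. Without TdTomato 1 and LATS_KO 3 together, also chosen after seeing the data, 27 were lower and 6 higher, beside 21.2% and 27.2% of all genes. Leaving out 1 library at a time gave 9 to 24 lower members: 11 without TdTomato 3, 10 without YAP_OE 1, 9 without YAP_OE 4 and 10 without YAP_OE 5. Of all genes, 1090, 847, 803 and 1167 were lower in these fits, in that order, of at least 12914 tested. Across all such fits 803 to 2048 genes were lower.

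**Figure D1:**
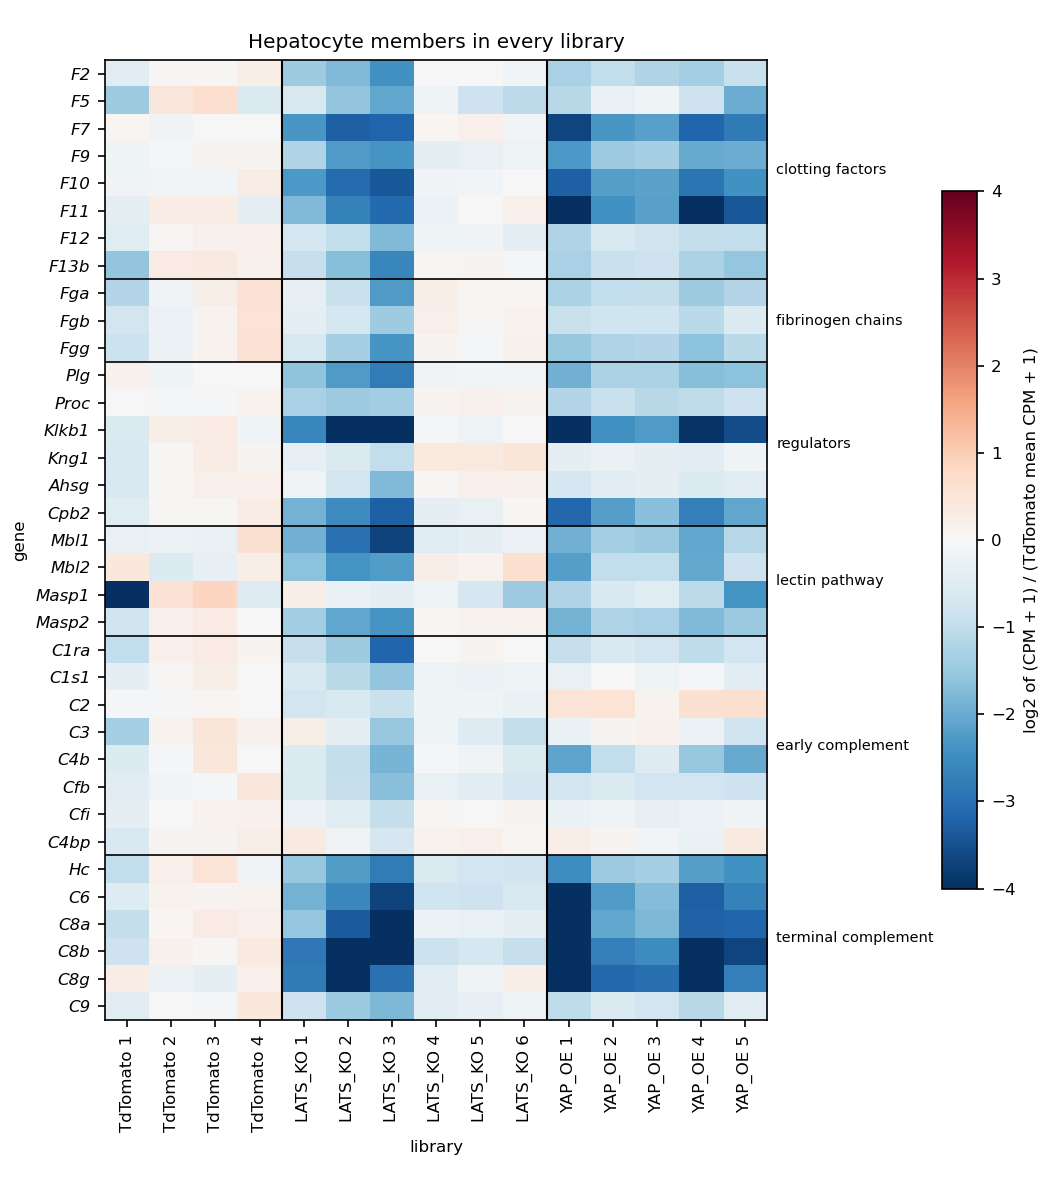
Level of each of the 35 hepatocyte members (rows, grouped by role) in each of the 15 libraries (columns), as the log2 ratio of CPM + 1 to the TdTomato mean; the colour scale ends at −4 and 4. The YAP_OE columns are blue for most clotting and terminal complement genes and pale for most early complement genes. Among the LATS_KO columns 3 is the darkest, 2 and then 1 are lighter, and 4 to 6 are pale.

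Among the clotting factors, those named in full had the smallest adjusted p of their group. F7 (chr8:13026034-13035809), which binds tissue factor to start clotting, stood at 174, 149, 167 and 166 CPM in the controls, in order of number, against 12, 31.9, 36.0, 17.2 and 22.1 CPM in the YAP_OE libraries. Every YAP_OE library lay far below every control, a fall of 2.78 ± 0.67 (SE) on the log2 scale, 6.89-fold lower (adjusted p = 0.00803, edgeR). F10 (chr8:13037308-13056676), the protease that activates prothrombin, stood at 793, 803, 800 and 1079 CPM in TdTomato and at 89.0, 188, 198, 114 and 160 CPM in YAP_OE. It was 5.80-fold lower, with no overlap (log2 change −2.54 ± 0.62, adjusted p = 0.00899, edgeR).

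F9 (chrX:59999464-60030759), the factor that is lacking in haemophilia B, was at 270, 295, 329 and 327 CPM in TdTomato and at 62.0, 111, 122, 75.3 and 77.3 CPM in YAP_OE. Its fall was smaller, 3.42-fold (log2 change −1.77 ± 0.42, adjusted p = 0.00736, edgeR), and the groups again did not overlap. F11 (chr8:45241174-45262031), which activates factor IX, was at 87.7, 138, 139 and 87.1 CPM in TdTomato and at 1.38, 20.5, 24.4, 5.65 and 9.96 CPM in YAP_OE. It showed the largest fall of the clotting factors, 9.13-fold (log2 change −3.19 ± 0.77, adjusted p = 0.00824, edgeR). These 4 falls stayed past the threshold without any single library. F12, the contact factor, also passed the test (log2 change −0.91, adjusted p = 0.0328, edgeR), but not without any of 7 single libraries (adjusted p up to 0.0826) and not without TMM scaling (adjusted p = 0.217).

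Prothrombin (F2), factor V (F5) and the carrier subunit of factor XIII (F13b) did not pass the test. Their log2 fold changes were −1.13, −0.74 and −1.15, with adjusted p of 0.0651, 0.261 and 0.0935. F2 nevertheless had no overlap, at 1060 to 1448 CPM in YAP_OE and 1980 to 3246 CPM in TdTomato.

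The fibrinogen chains lay lower in YAP_OE by similar amounts, and 1 of the 3 passed the test. Fgg (chr3:83007724-83015049) was at 3337, 5143, 6590 and 9097 CPM in TdTomato and at 2092, 2592, 2701, 1928 and 2870 CPM in YAP_OE, so the groups did not overlap. Its log2 fold change was −1.31 ± 0.44 (adjusted p = 0.0379, edgeR), and this call was lost without any of 8 single libraries (adjusted p up to 0.126) and without TMM scaling (adjusted p = 0.0756). Fga and Fgb had log2 fold changes of −1.14 and −0.81 (adjusted p = 0.0628 and 0.0991). The controls themselves spread widely for these genes, lowest in TdTomato 1 and highest in TdTomato 4. TdTomato 4 also held the acute phase gene Saa1 at 7255 CPM, against 194 to 902 CPM in the other controls. It was among the 8 libraries without which the Fgg call was lost. Whether the acute phase levels bear on the fibrinogen values was not tested.

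Of the regulators, Cpb2, Klkb1, Plg and Proc were lower in YAP_OE. Klkb1 (chr8:45266689-45294859) encodes plasma prekallikrein, the protease that releases bradykinin. It was at 162, 285, 299 and 214 CPM in TdTomato and at 6.46, 43.6, 48.7, 14.9 and 19.6 CPM in YAP_OE, 9.0-fold lower (log2 change −3.17 ± 0.93, adjusted p = 0.0197, edgeR). Without YAP_OE 4 its adjusted p was 0.0508. Cpb2 (chr14:75242287-75283555), the carboxypeptidase that protects fibrin from plasmin, stood at 355, 508, 504 and 605 CPM in TdTomato and at 54.9, 106, 153, 73.7 and 116 CPM in YAP_OE. It was 4.90-fold lower, with no overlap (log2 change −2.29 ± 0.57, adjusted p = 0.00916, edgeR), and passed the test without any single library.

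Plg (chr17:12378608-12419385), the precursor of plasmin, was at 5287, 4121, 4652 and 4669 CPM in TdTomato and at 1239, 1945, 1943, 1433 and 1516 CPM in YAP_OE. The fall was 2.90-fold (log2 change −1.54 ± 0.49, adjusted p = 0.0281, edgeR), and without 1 of 5 libraries the adjusted p rose to as much as 0.0674. Proc, which encodes the anticoagulant protein C, was at 688, 665, 684 and 764 CPM in TdTomato and at 314, 377, 326, 343 and 397 CPM in YAP_OE. These groups were tight and well apart, 1.99-fold (log2 change −0.99 ± 0.35, adjusted p = 0.0461, edgeR), yet the call lay near the threshold: it was lost without any of 9 single libraries (adjusted p up to 0.0967), with RLE factors (0.0600), without TMM scaling (0.134), without the filter on low counts (0.0581) and with unstranded counts (0.0501). Kininogen (Kng1) and fetuin-A (Ahsg), chosen here after their values were seen, had log2 fold changes of −0.32 and −0.49 (adjusted p = 0.499 and 0.345, edgeR), and without TMM scaling both lay above 0 (0.23 and 0.071).

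**Figure D2:**
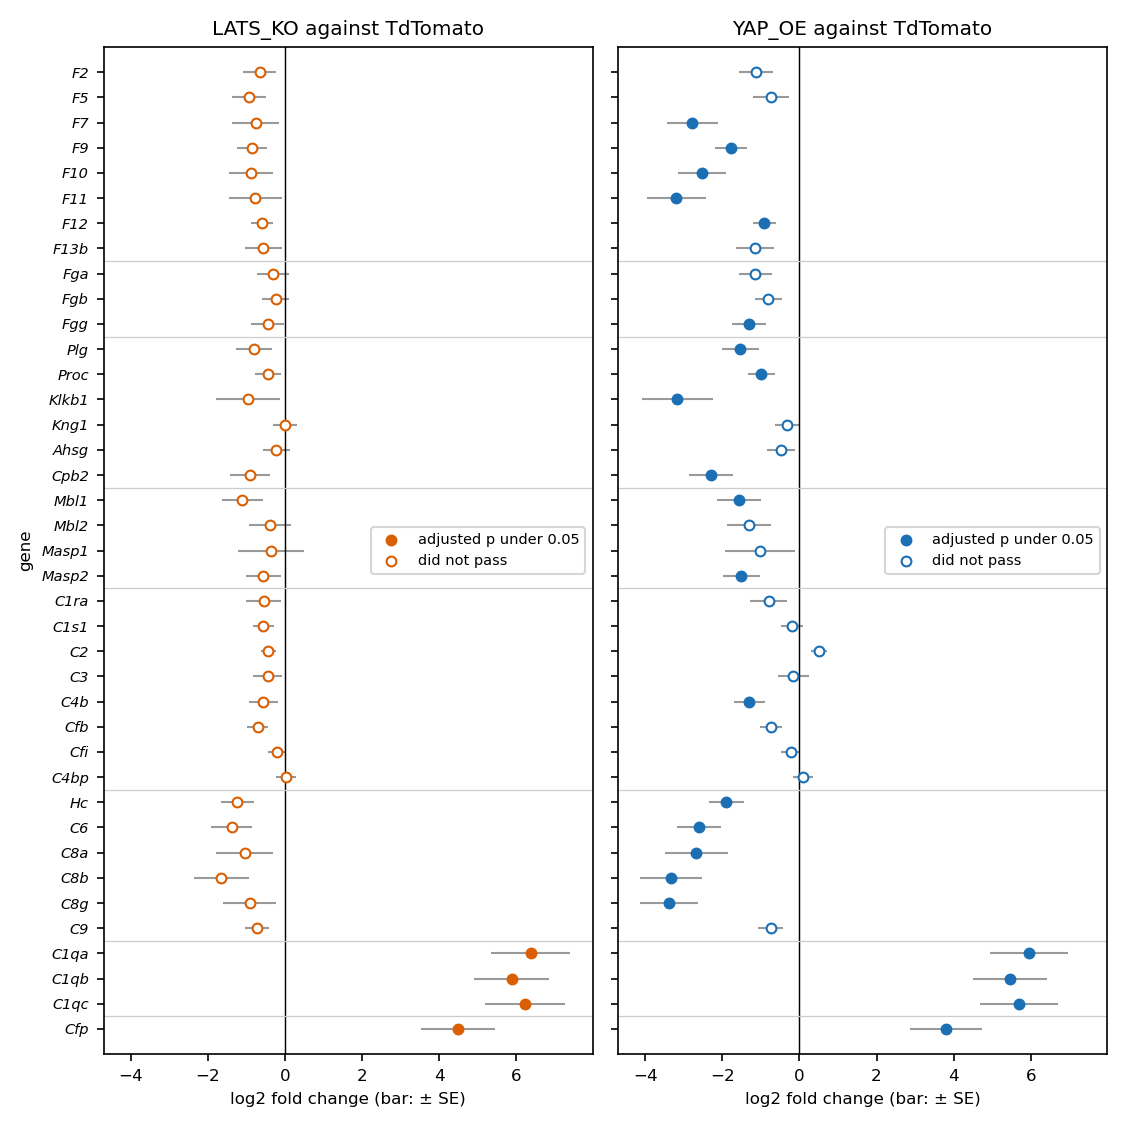
Log2 fold change of 39 members against TdTomato (points; bars show ± SE) in LATS_KO (left) and YAP_OE (right), with filled points for adjusted p under 0.05 (edgeR); C3ar1 and C5ar1, at 0 in all controls, are left out. In YAP_OE the filled points below 0 reach −3.38 (C8g), in LATS_KO every hepatocyte member is open, and the C1q chains and Cfp are filled and above 3.7 in both panels.

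Terminal complement showed the deepest falls in YAP_OE. C8g (chr2:25498651-25501719), the lipocalin-like chain of C8, was at 696, 476, 435 and 648 CPM in TdTomato and at 24.7, 62.4, 68.9, 31.2 and 84.1 CPM in YAP_OE. It was 10.4-fold lower (log2 change −3.38 ± 0.75, adjusted p = 0.00598, edgeR). C8b (chr4:104766317-104804548), another chain of C8, was at 549, 1106, 1019 and 1244 CPM in TdTomato and at 32.3, 146, 172, 58.7 and 76.4 CPM in YAP_OE. It was 10.1-fold lower (log2 change −3.33 ± 0.80, adjusted p = 0.00816, edgeR). For both chains every YAP_OE library lay below every control, by a wide margin.

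C6 (chr15:4727175-4814967), which joins C5b to open the terminal complex, was at 337, 535, 514 and 535 CPM in TdTomato and at 26.1, 100, 145, 48.8 and 72.7 CPM in YAP_OE. It was 6.12-fold lower (log2 change −2.61 ± 0.57, adjusted p = 0.00552, edgeR). Hc (chr2:34983331-35061438), the mouse gene for C5, was at 975, 2249, 2819 and 1753 CPM in TdTomato and at 350, 714, 775, 421 and 360 CPM in YAP_OE. It was 3.72-fold lower (log2 change −1.90 ± 0.46, adjusted p = 0.00857, edgeR). C8g, C8b, C6 and Hc kept their calls without any single library. The remaining C8 chain, C8a, fell by 2.67 on the log2 scale (adjusted p = 0.0234, edgeR), but not past the threshold without YAP_OE 1, 4 or 5 (adjusted p up to 0.0579). C9, which forms the wall of the pore, was at 626 to 1002 CPM in YAP_OE and 988 to 1807 CPM in TdTomato (log2 difference −0.75, adjusted p = 0.10, edgeR).

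In the lectin pathway, Masp2 and Mbl1 were lower in YAP_OE. Masp2 (chr4:148602554-148615499), the protease that cleaves C4 and C2, was at 152, 306, 332 and 269 CPM in TdTomato and at 70.9, 113, 107, 77.7 and 94.4 CPM in YAP_OE. It was 2.86-fold lower with no overlap (log2 change −1.52 ± 0.48, adjusted p = 0.028, edgeR), and lost the call without any of 6 single libraries (adjusted p up to 0.0670). Mbl1 (chr14:41151458-41159601), a mannose-binding lectin, was at 197, 208, 201 and 374 CPM in TdTomato and at 63.5, 94.7, 86.8, 57.6 and 110 CPM in YAP_OE. Its log2 change of −1.57 ± 0.57 just passed the test (adjusted p = 0.0495, edgeR) and missed it without any of 12 single libraries (up to 0.143) and under 5 other settings (0.0520 to 0.0799). The second lectin, Mbl2, had no overlap but did not pass (−1.30, adjusted p = 0.102, edgeR). Masp1 levels were 0, 133, 163 and 62.4 CPM in the controls, and the 0 in TdTomato 1 allows a level of up to 0.232 CPM. Its log2 difference was −1.03 (adjusted p = 0.437, edgeR).

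In early complement 7 of 8 genes did not pass the test. The exception was C4b (chr17:34728380-34743882), at 1692, 2366, 3399 and 2432 CPM in TdTomato and at 576, 1253, 1725, 864 and 604 CPM in YAP_OE. The highest YAP_OE library overlapped the lowest control, and the log2 change was −1.30 ± 0.40 (adjusted p = 0.0249, edgeR). The call was lost without TdTomato 3 or YAP_OE 1, 4 or 5 (adjusted p up to 0.0735) and without TMM scaling (0.128). C4b has a near-identical copy, C4a, and reads that map to both were not counted, so its level is uncertain; the same holds for C1ra, C1s1 and Kng1. Factor B (Cfb) had no overlap but did not pass (−0.74, adjusted p = 0.0602).

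Chosen after their values were seen, C3, C4bp, Cfi and C1s1 were the early complement genes with the smallest differences. C3, the hub of all 3 activation routes, was at 4630, 12806, 16198 and 13114 CPM in TdTomato and at 9654, 12635, 13040, 10042 and 6750 CPM in YAP_OE, a log2 difference of −0.16 ± 0.40 (adjusted p = 0.804, edgeR), which was 0.43 without TMM scaling. C4bp, an inhibitor that binds C4b, was at 460 to 848 CPM in TdTomato and 583 to 899 CPM in YAP_OE (0.08 ± 0.26, adjusted p = 0.854, edgeR); without TMM scaling it was called higher (0.62, adjusted p = 0.043). The protease factor I (Cfi) had a log2 difference of −0.23 ± 0.25 and the C1 protease C1s1 of −0.20 ± 0.29, and both lay above 0 without TMM scaling (0.31 and 0.36). These groups overlapped, and a missed threshold does not show that the levels were alike.

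C2 (chr17:34862604-34898265), the protease partner of C4b, was also chosen after its values were seen. It was at 236, 237, 263 and 251 CPM in TdTomato, at 150, 163, 133, 220, 219 and 207 CPM in LATS_KO and at 357, 361, 270, 380 and 381 CPM in YAP_OE. None of the 3 groups overlapped another: YAP_OE lay above the controls and LATS_KO below them. Against TdTomato neither difference passed the test (0.50 ± 0.21, adjusted p = 0.0801 in YAP_OE; −0.44 ± 0.20, adjusted p = 0.168 in LATS_KO; edgeR), though in YAP_OE it did with RLE factors, without TMM scaling, with DESeq2, with voom and in a fit of only the 2 groups compared. Its neighbour Cfb, transcribed from the same strand 85 bases away, was at 1322 to 1567 CPM in YAP_OE and 1730 to 3165 CPM in TdTomato, the opposite order.

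**Figure D3:**
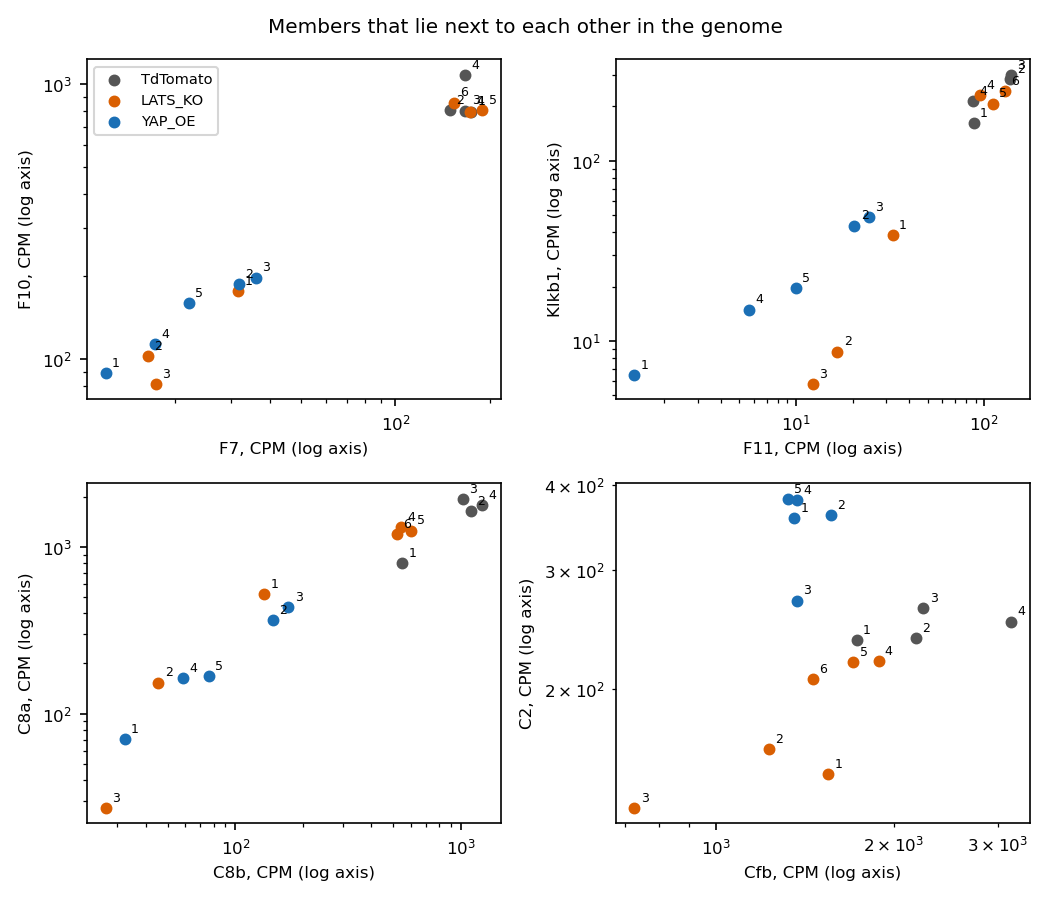
CPM of 4 pairs of neighbouring members in each library (both axes logarithmic; points coloured by group and numbered by library). F7 with F10, F11 with Klkb1 and C8b with C8a run from low in YAP_OE and LATS_KO 1 to 3 to high in the controls, while for Cfb and C2 the YAP_OE libraries lie above the controls on C2 and below them on Cfb.

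In LATS_KO the hepatocyte members spread widely between libraries. No hepatocyte member was lower than in TdTomato past the threshold by edgeR, while 0.973% of all genes were. At an unadjusted p under 0.05, 7 were lower, where 5.23% of all genes were. DESeq2 and voom each called 5, where they called 2.78% and 10.7% of all genes lower. Leaving out both TdTomato 1 and LATS_KO 3 gave 2 (Hc and Cfb; 3.24% of all genes), and sizes without TMM scaling gave 1 (Hc; 0.881%). Still, 34 of the 35 lay below 0, with a median log2 fold change of −0.60 beside 0.13 for all genes. The exception, C4bp, lay at 0.03. F9, C2 and C6 were lower in every LATS_KO library than in every control, where 1.9% of all genes showed no overlap in that direction.

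The values by library show where that spread lay. F7 was at 31.7, 16.3, 17.3, 172, 189 and 153 CPM, in order of number, so that the first 3 reached the YAP_OE range and the last 3 the control range. F10 was at 176, 103, 81.4, 794, 801 and 855 CPM in LATS_KO 1 to 6, F11 at 32.6, 16.6, 12.3, 95.2, 111 and 129, and Klkb1 at 38.6, 8.72, 5.78, 232, 207 and 244. C8b was at 134, 45.6, 26.6, 541, 600 and 522 CPM and C8g at 77.6, 28.6, 70.8, 424, 505 and 677 CPM. The log2 fold changes of the group as a whole were −0.76 ± 0.61 for F7, −0.77 ± 0.69 for F11, −0.97 ± 0.84 for Klkb1 and −1.65 ± 0.72 for C8b (adjusted p = 0.483, 0.546, 0.525 and 0.16, edgeR). Proc, at 281, 254, 268, 757, 783 and 750 CPM, had the same split with little spread on either side.

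C6 lay below every control in all 6, and Hc in 3 of them. C6 was at 129, 79.1, 36.1, 279, 273 and 307 CPM in LATS_KO, below the lowest control of 337 CPM, with a log2 fold change of −1.39 ± 0.53 (adjusted p = 0.104, edgeR). Hc was at 678, 411, 281, 1307, 1152 and 1125 CPM against 975 to 2819 CPM in TdTomato, so LATS_KO 4 to 6 overlapped the controls (−1.24 ± 0.43, adjusted p = 0.0789, edgeR).

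Counted over the 35 hepatocyte members, those below the lowest control numbered 22, 29, 34, 7, 5 and 5 across the LATS_KO libraries. In YAP_OE 1 to 5 the counts were 25, 23, 22, 25 and 23. The median log2 ratio of these members to the TdTomato mean stood at −0.93, −1.58, −2.35, −0.15, −0.13 and −0.10 across LATS_KO, against −1.42 to −0.97 among the YAP_OE libraries. The labels give no property that separates LATS_KO 1 to 3 from 4 to 6, so these were not compared as groups. The share of mapped reads outside genes was 17.2% to 25.8% in LATS_KO 3 to 6 and 6.57% and 7.05% in LATS_KO 2 and 1, and its part in the result was not tested.

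The C1q chains moved in the other direction in both groups. All 3 chains and all 3 myeloid members were higher than in TdTomato in LATS_KO, where 10% of all genes were higher, and in YAP_OE. In LATS_KO all of these but C5ar1 had no overlap with the controls, against 6.65% of all genes. C1qa (chr4:136895917-136898803) was at 0, 0.166, 0.635 and 1.72 CPM in the controls. Its level was 8.50, 149, 33.4, 58.9, 52.3 and 28.4 CPM in LATS_KO, and 21.2, 23.6, 26.1, 47.7 and 88.1 CPM in YAP_OE. The lowest LATS_KO library was well above the highest control. The log2 fold changes were 6.37 ± 1.03 in LATS_KO (adjusted p = 0.00471, edgeR) and 5.96 ± 1.02 in YAP_OE (adjusted p = 0.00206, edgeR).

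C1qb (chr4:136880129-136886187) was at 0, 0.552, 1.19 and 2.78 CPM in TdTomato, at 14.9, 202, 37.0, 71.6, 58.5 and 27.3 CPM in LATS_KO and at 32.8, 31.9, 37.5, 60.7 and 94.9 CPM in YAP_OE. It rose by 5.88 ± 0.98 and 5.46 ± 0.97 on the log2 scale (adjusted p = 0.00475 and 0.00231, edgeR). C1qc (chr4:136889804-136893065) was at 0, 0.110, 0.953 and 2.01 CPM in TdTomato, at 7.74, 152, 59.8, 56.8, 49.7 and 30.0 CPM in LATS_KO and at 25.3, 22.9, 27.6, 48.9 and 82.8 CPM in YAP_OE. It rose by 6.22 ± 1.04 and 5.70 ± 1.02 (adjusted p = 0.00483 and 0.00242, edgeR). In both genes, as in C1qa, LATS_KO 2 was the highest of all libraries and no treated library overlapped a control.

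TdTomato 1 held no count of any chain, which allows up to 0.232 CPM, and it detected the fewest genes. Without it the rises were 5.99, 5.48 and 5.83 in LATS_KO and 5.57, 5.07 and 5.31 in YAP_OE for C1qa, C1qb and C1qc (adjusted p of at most 0.00914, edgeR). Without TdTomato 4, the control with the highest C1q levels, they were 7.70, 6.87 and 7.43 in LATS_KO and 7.29, 6.46 and 6.91 in YAP_OE. Without LATS_KO 2 the LATS_KO rises were 5.78, 5.17 and 5.68. No single library left out removed any of these calls. In a fit of only the LATS_KO and TdTomato libraries the same rises missed the threshold (adjusted p = 0.0621 for each chain, edgeR), as did all 6 members; that fit called 1 of 12020 genes in all.

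**Figure D4:**
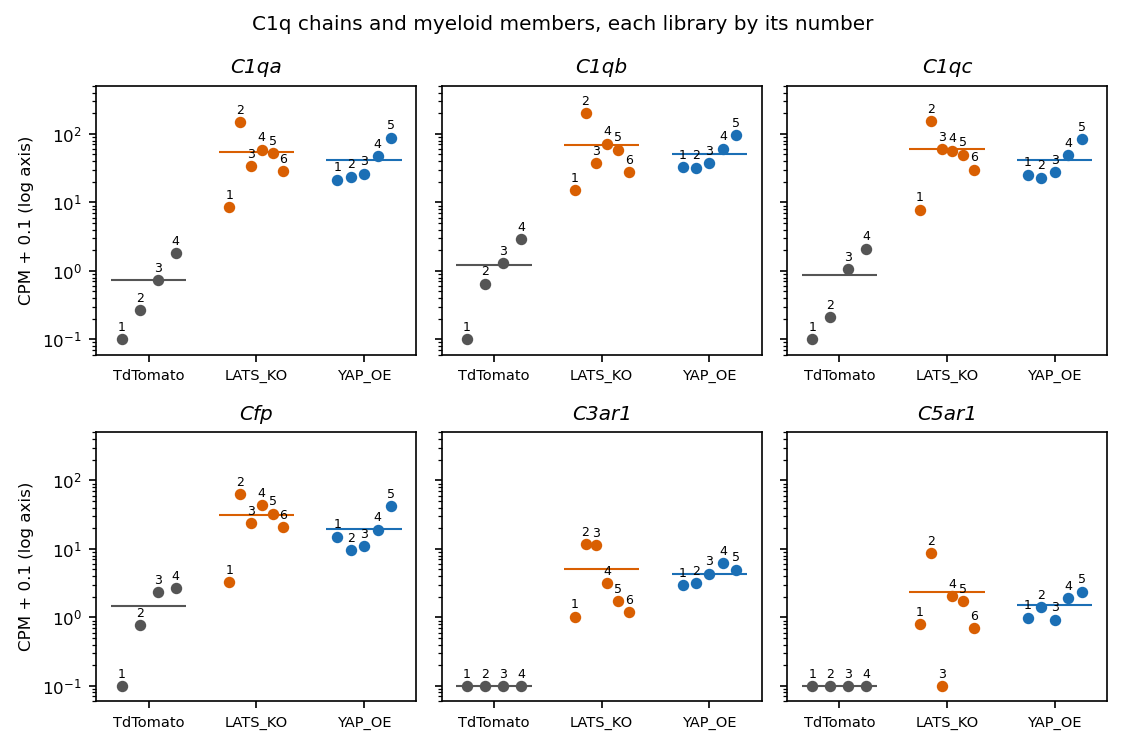
CPM + 0.1 (logarithmic axis) of the C1q chains and the 3 myeloid members in each library, numbered by replicate; horizontal lines are group means. For the C1q chains all LATS_KO and YAP_OE points lie above all controls, LATS_KO 1 is the lowest of its group and LATS_KO 2 the highest.

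Of the myeloid members, properdin (Cfp, chrX:20925454-20931555), which stabilises the alternative pathway convertase, was at 0, 0.662, 2.22 and 2.59 CPM in TdTomato. It was at 3.19, 62.2, 23.7, 43.2, 32.4 and 20.6 CPM in LATS_KO and at 15, 9.45, 11, 18.9 and 42.1 CPM in YAP_OE. The rises of 4.48 ± 0.97 and 3.80 ± 0.95 on the log2 scale passed the test (adjusted p = 0.0112 and 0.0094, edgeR). C3ar1, the receptor for the fragment C3a, had no count in any control and was at 0.920 to 11.5 CPM in LATS_KO and 2.83 to 6.08 CPM in YAP_OE. Against a floor of 3 counts over the control group it was at least 114-fold higher in LATS_KO and at least 89.7-fold higher in YAP_OE (adjusted p = 0.00506 and 0.00218, edgeR). C5ar1, the receptor for C5a, also had no count in the controls. It was at 0.703, 8.57, 0, 1.93, 1.62 and 0.601 CPM in LATS_KO, at least 69.6-fold higher, and at 0.823 to 2.27 CPM in YAP_OE, at least 29.9-fold higher (adjusted p = 0.0132 and 0.00875, edgeR). For both receptors the bound pools the counts of a group, and most of the LATS_KO counts came from LATS_KO 2. Without LATS_KO 2 the fitted log2 change of C5ar1 in LATS_KO moved from 8.59 to 7.34 (adjusted p = 0.0179, edgeR).

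Most macrophage markers were also higher in both groups. Of 12 macrophage markers, 11 were higher in LATS_KO and 11 in YAP_OE, where 10% and 17.9% of all genes were. Their summed level was 145 to 850 CPM in LATS_KO and 317 to 550 CPM in YAP_OE against 0.0774 to 15.4 CPM in TdTomato. In TdTomato 1 all of them but Ctss had no count, and Ms4a7 had none in any control. The Kupffer cell markers, of resident liver macrophages, summed to 13.1 to 560 CPM in LATS_KO, 133 to 390 CPM in YAP_OE and 2.54 to 11.5 CPM in TdTomato, and 6 of 6 and 4 of 6 were higher. In LATS_KO, 7 of 12 macrophage and 1 of 6 Kupffer cell markers had no overlap with the controls, against 6.65% of all genes. In YAP_OE, 12 of 12 and 6 of 6 had none, against 28.3%. LATS_KO 3 had no count of Adgre1, Cd14, Cx3cr1, Ms4a7, Vsig4, Timd4, Cd5l or Cd163. Csf1r was at 88.1 CPM there, and the C1q mean at 43.4 CPM. Of 4 monocyte markers tested, 3 were higher in LATS_KO (Ccr2, Chil3 and Ms4a6c) and 2 in YAP_OE (Ccr2 and Ms4a6c). The monocyte markers summed to 9.07 to 115 CPM in LATS_KO, 7.85 to 24.4 CPM in YAP_OE and 1.35 to 7.82 CPM in TdTomato. Of 3 neutrophil markers tested, 1 was higher in each group (Csf3r). Whether more macrophages, more of other myeloid cells or more transcript per cell gave the levels of C1q and the myeloid members cannot be told apart in bulk tissue.

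Set side by side, the hepatocyte members and the C1q chains did not keep one relation over the libraries. In YAP_OE every library had both a low median of the hepatocyte members (−1.42 to −0.97) and a high mean of the C1q chains (26.1 to 88.6 CPM). LATS_KO 4, 5 and 6 had C1q means of 62.5, 53.5 and 28.6 CPM, within the YAP_OE range, with hepatocyte medians of −0.15, −0.13 and −0.10. LATS_KO 1 had the lowest C1q mean of its group, 10.4 CPM, with a hepatocyte median of −0.93. LATS_KO 2 and 3 had C1q means of 168 and 43.4 CPM with medians of −1.58 and −2.35. In the controls the C1q mean was 0 to 2.17 CPM and the median −0.51 in TdTomato 1 and 0.04 to 0.18 in the others. The 5 cholangiocyte markers summed to 3710 to 6182 CPM in YAP_OE, 24.1 to 47.9 CPM in TdTomato and 91.4 to 4377 CPM in LATS_KO. Most of each sum was Spp1, which macrophages can also express, at 4210, 1782, 1234, 184, 81.1 and 116 CPM in the LATS_KO libraries. In YAP_OE 4 of 5 were higher, where 17.9% of all genes were, and in LATS_KO 4 of 5, where 10% were. Krt7 did not pass in YAP_OE (0.470 to 1.68 CPM, adjusted p = 0.130, edgeR), nor Epcam in LATS_KO (0 to 1.08 CPM, adjusted p = 0.123, edgeR). In Spp1, as in F7, LATS_KO 1 to 3 were nearer YAP_OE than LATS_KO 4 to 6 were. The part of the cholangiocyte markers in the result was not tested.

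**Figure D5:**
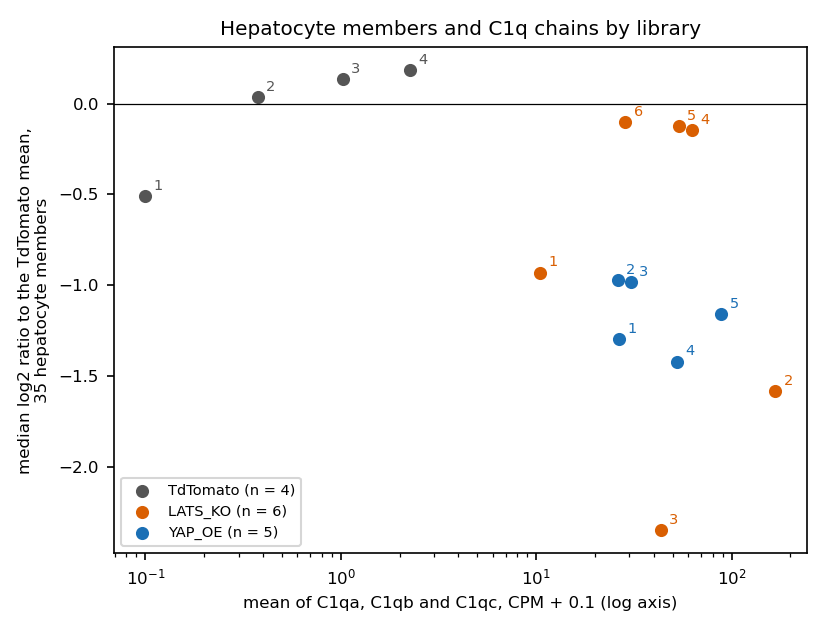
Median log2 ratio of the 35 hepatocyte members to the TdTomato mean (vertical) against the mean CPM + 0.1 of the 3 C1q chains (horizontal, logarithmic) in each library, numbered by replicate. LATS_KO 4 to 6 lie beside the YAP_OE libraries on the C1q axis and near 0 on the vertical axis, where YAP_OE lies between −1.42 and −0.97.

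YAP_OE and LATS_KO were also compared with each other. No hepatocyte member was lower in YAP_OE past the threshold by edgeR, where 0.49% of all genes were lower. At an unadjusted p under 0.05, 11 were lower, where 9.06% of all genes were. DESeq2 called 3 and voom 27, where they called 2.76% and 27.8% of all genes, and 8 were called when TdTomato 1 and LATS_KO 3 were both left out, with 7.17% of all genes. The largest differences were those of C8g (−2.45 ± 0.69, adjusted p = 0.11), F11 (−2.42 ± 0.71, adjusted p = 0.121) and Klkb1 (−2.20 ± 0.85, adjusted p = 0.225, edgeR). C2 was the 1 member called higher, where 0.498% of all genes were higher: 0.94 ± 0.18 on the log2 scale (adjusted p = 0.0239, edgeR), with no overlap between the groups, which 4.76% of all genes showed in that direction. No member was lower without overlap, against 1.95% of all genes. That call was lost without YAP_OE 1, 2, 4 or 5 (adjusted p up to 0.0947). The C1q chains differed by −0.52 to −0.41 between YAP_OE and LATS_KO, with adjusted p of 0.855 to 0.891 (edgeR).

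Other genes of both pathways came from lists drawn up by function. Of 28 further coagulation genes tested, 6 were lower and 7 higher in YAP_OE, where 10.8% and 17.9% of all genes were, with a median log2 fold change of −0.21. In LATS_KO 0 were lower and 5 higher by edgeR (3 lower at an unadjusted p under 0.05), where 0.973% and 10% of all genes were. Serpinc1, which encodes antithrombin, was at 2125, 3183, 3193 and 3187 CPM in TdTomato and at 571, 835, 831, 509 and 765 CPM in YAP_OE. This antithrombin, which inhibits several of the clotting factors above, fell by 2.06 ± 0.54 on the log2 scale (adjusted p = 0.0124, edgeR). Hgfac, a protease that activates hepatocyte growth factor, fell from 299 ± 64.8 to 50.2 ± 13.6 CPM (adjusted p = 0.0234, edgeR), and Lman1, the cargo receptor for factors V and VIII, from 387 ± 136 to 139 ± 22.2 CPM (adjusted p = 0.016, edgeR; SD, n = 4 and 5). Kng2, the second kininogen gene, rose from 290 ± 65.4 to 541 ± 48.9 CPM (adjusted p = 0.00707, edgeR). The urokinase Plau and its receptor Plaur had 1 and 2 counts in all controls together, and were at 6.92 to 35.4 and 5.52 to 15.4 CPM in YAP_OE and at 0.901 to 26.6 and 0.841 to 84.8 CPM in LATS_KO.

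Of 19 further complement genes tested, 4 were lower and 7 higher in YAP_OE, where 10.8% and 17.9% of all genes were. Their median log2 fold change there was 1.15. In LATS_KO 0 were lower and 5 higher by edgeR, where 0.973% and 10% of all genes were. At an unadjusted p under 0.05 also 0 were lower in LATS_KO, where 5.23% of all genes were. C1rl, a protease related to C1r, fell from 228 ± 63.8 to 49.4 ± 15 CPM in YAP_OE (adjusted p = 0.00722, edgeR). C4a, the copy of C4b, fell from 38.3 ± 20.6 to 5.24 ± 3.43 CPM (adjusted p = 0.0151), and Cr1l, a regulator on cell membranes, from 53.7 ± 5.23 to 34.1 ± 2.81 CPM (adjusted p = 0.0152, edgeR). The genes higher in YAP_OE were Itgam, Itgax, Itgb2, Vsig4, Fcna, the collectin Colec11 and Cd93, and the first 5 of these were also higher in LATS_KO. Fcna, a ficolin of macrophages, was at 0 to 1.96 CPM in TdTomato, at 3.19 to 65.2 CPM in LATS_KO and at 16.9 to 73.5 CPM in YAP_OE (adjusted p = 0.00667 and 0.00292, edgeR). Vsig4, the complement receptor of Kupffer cells, was at 0.110 to 1.34 CPM in TdTomato, at 0 to 60.9 CPM in LATS_KO and at 21.1 to 53.2 CPM in YAP_OE (adjusted p = 0.0148 and 0.00612, edgeR). Itgb2 and Itgam, the chains of complement receptor 3, had at most 0.192 CPM in any control and were at 3.30 to 60.6 and 0.300 to 32.0 CPM in LATS_KO and at 5.63 to 12.7 and 2.06 to 7.11 CPM in YAP_OE.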

How the data were processed

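The authors deposited unnormalised gene counts, 1 file per library, laid out as the gene table of STAR. FastQC, Trimmomatic, STAR and mm10 are named in the submitters' processing notes; versions and annotation are not given in the sources used here. The extraction text of the labels describes another design, so no animal, diet or age was taken from it. The reverse-strand column was used, since the forward column held 0.966% to 1.99% of strand-assigned counts. Lines that name no gene (14.2% to 92.5% of reads) were left out, and multiply mapped reads were not counted per gene.

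From the deposited counts, edgeR 4.0.16 in R 4.3.3 (TMM, filterByExpr, glmQLFit with robust = TRUE, glmQLFTest, two-sided) fitted all 15 libraries with group as the only term (12 residual degrees of freedom). The procedure was tested on simulated data. SE was computed as the log2 change over the root of the F statistic. All 41 members passed the filter. CPM uses TMM-scaled sizes; a floor of 3 counts covers counting error only. No replicates agreed within sampling noise. Exon lengths are unions of GENCODE M21 exons.

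The members and lists were chosen with earlier results of these data known. Members given in full were those past the threshold against TdTomato with the smallest adjusted p, up to 4 per role, and the C1q chains; other lists gave up to 3 genes per direction. Alternatives were RLE factors, DESeq2 1.42.0, limma 3.58.1 voom with quality weights, other filters, unstranded counts, a fit of only the compared groups, a block for the replicate number and leaving out each library. The fits without TMM scaling and without both TdTomato 1 and LATS_KO 3 were added after seeing the data. Both comparisons with TdTomato share the same 4 controls.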

Additional observations from a re-analysis of the deposited data

Results flagged for a closer look

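Within groups of 4 to 6 libraries, 10 of 121 tests found a library far from the others of its group by Dixon's criterion, which chance alone gives in about 1 of 20. Among the controls, F10 was at 1079 CPM in TdTomato 4 (793 to 803 in the others) and Mbl1 at 374 CPM in the same library (197 to 208). F13b was at 86.4 CPM in TdTomato 1 (297 to 332) and C6 at 337 CPM there (514 to 535). In YAP_OE, C2 was at 270 CPM in YAP_OE 3 (357 to 381) and Cfb at 1567 CPM in YAP_OE 2 (1322 to 1372). In LATS_KO 2, C1qa was at 149 CPM (8.50 to 58.9), C1qb at 202 CPM (14.9 to 71.6), C1qc at 152 CPM (7.74 to 59.8) and C5ar1 at 8.57 CPM (0 to 1.93).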

How the results depend on the processing

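In YAP_OE against TdTomato, 9 of the 18 lower calls (F7, F9, F10, F11, Cpb2, Hc, C6, C8b and C8g) and all 6 higher calls held without each single library, and 12 and 6 held under every other setting. The count of lower members was 16 with RLE factors, 13 without TMM scaling, 21 by DESeq2, 31 by voom, 16 without a filter and with unstranded counts, 17 with CPM of at least 1 in 4 libraries, 14 with the replicate block, 26 with only the groups compared and 27 without both TdTomato 1 and LATS_KO 3. Over all genes, 1412 of 13055 were lower as reported, 1128 with RLE factors, 612 without TMM scaling, 1518 by DESeq2 and 4174 by voom. Without a filter 1291 of 18103 were lower, with unstranded counts 1363 of 13131, and with the CPM filter 1374 of 12294. The replicate block gave 1210 of 13055, only the groups compared 2116 of 12713, and leaving out both libraries 2808 of 13256. Leaving out 1 library gave 9 to 24, where 803 (of 12914) to 2048 (of 13032) of all genes were lower. In LATS_KO, 0 members were lower as reported, 5 by DESeq2 and by voom, 1 without TMM scaling and 2 without both libraries. Of all genes, 127, 359, 1395, 115 and 429 were lower in that order. In LATS_KO 6 members were higher, 5 with the block and 0 with only the groups compared. Beside these, 1311, 582 and 0 of all genes were higher. In YAP_OE against LATS_KO, 0 were lower, 3 by DESeq2, 27 by voom, 8 without both libraries and 0 to 2 without 1 library. Of all genes, 64, 356, 3623, 951 and 13 to 250 were lower in that order. In that comparison 1 member was higher, 2 by voom, 0 with the replicate block and 0 to 1 without 1 library. Beside these, 65, 3702, 9 and 23 to 189 of all genes were higher. The replicate numbers gave no clear pairing of the libraries: of 13 same-numbered pairs 4 correlated above 0.1 (−0.25 to 0.23), and 2 of 14 libraries correlated best with their own number. These correlations cannot exclude a pairing, since they also carry the wide spread between the LATS_KO libraries. With the block, the calls of F12, Fgg, C4b and C8a in YAP_OE (adjusted p = 0.0549, 0.0590, 0.0654 and 0.0577), C5ar1 in LATS_KO (0.0559) and C2 between YAP_OE and LATS_KO (0.12) were lost.

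Directions that turned were small differences that did not pass the test as reported. In LATS_KO, voom gave Fga 0.018, Fgb 0.10, Proc 0.067, Mbl2 0.48 and Kng1 0.19. Kng1 was 0.046 with RLE factors and by DESeq2, and 0.19 without TMM scaling. Without TMM scaling Masp1 was 0.076 and Cfi 0.033. With the replicate block Masp1 was 0.42 and C4bp −0.074. C4bp was −0.037 with only the groups compared and −0.026 without both libraries. In YAP_OE without TMM scaling, Kng1 was 0.23, Ahsg 0.071, C1s1 0.36, C3 0.43 and Cfi 0.31. C3 was 0.035 with RLE factors and by DESeq2. C4bp was −0.11 by voom and −0.078 without both libraries. Without single libraries the ranges in LATS_KO were −0.16 to 0.13 for Kng1, −0.78 to 0.091 for Masp1 and −0.13 to 0.13 for C4bp, and in YAP_OE −0.43 to 0.031 for C3 and −0.078 to 0.18 for C4bp. The causes were not tested. The median of all genes was 0.13 in LATS_KO and 0.17 in YAP_OE, 0.21 and 0.34 with RLE factors, and 0.46 and 0.73 without TMM scaling.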

Other observations

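Transcription factors of hepatocytes and acute phase genes were examined beside the members. Of 12 hepatocyte transcription factors, 1 passed the test in YAP_OE against TdTomato: Cebpb, at 119 to 367 CPM in TdTomato and 85.1 to 175 CPM in YAP_OE (log2 change −1.20 ± 0.35, adjusted p = 0.0189, edgeR). Of all genes, 10.8% were lower in that comparison. In LATS_KO none of the 12 factors passed the test by edgeR, where 0.973% of all genes were lower. At an unadjusted p under 0.05, 1 factor was lower in LATS_KO, where 5.23% of all genes were. Chosen after their values were seen, Cebpa was at 147, 183, 115, 693, 726 and 672 CPM in LATS_KO 1 to 6 and 555 to 643 CPM in TdTomato, and Hnf4a at 297 to 482 CPM in YAP_OE and 291 to 1046 CPM in TdTomato (adjusted p = 0.0664, edgeR).

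Of 13 acute phase genes, 4 were lower in YAP_OE (Orm1, Saa3, Hpx and Itih3), where 10.8% of all genes were. Orm1, a plasma glycoprotein, fell by 3.03 ± 0.66 on the log2 scale (adjusted p = 0.00564, edgeR), Saa3 by 3.67 ± 0.92 (adjusted p = 0.00964) and the heme carrier Hpx by 1.36 ± 0.37 (adjusted p = 0.0148, edgeR). TdTomato 4 held the highest control level of each: Orm1 at 2777 CPM (1018 to 1238 in the other controls), Saa3 at 77.9 CPM (6.04 to 40.1) and Hpx at 16214 CPM (6437 to 6968). Without it the falls of Orm1 and Saa3 were 2.57 and 2.78 (adjusted p = 0.0211 and 0.0461, edgeR). Hpx and Itih3 no longer passed (both −0.93, adjusted p = 0.0728 and 0.0907, edgeR). Lcn2, at 259 CPM in TdTomato 4, did not pass with it (adjusted p = 0.344 in LATS_KO and 0.803 in YAP_OE, edgeR). Without TdTomato 4, Lcn2 was higher in LATS_KO and YAP_OE (4.07 and 2.84, adjusted p = 0.0392 and 0.0439, edgeR). In YAP_OE only Lcn2, Saa2 and Apcs then lay above 0, the last 2 without passing. Hamp, the iron hormone hepcidin, was higher in LATS_KO, at 579 to 1359 CPM against 368 to 556 CPM in TdTomato (0.95 ± 0.27, adjusted p = 0.0327, edgeR). Without TdTomato 4 its rise was 1.10 (adjusted p = 0.0507, edgeR). Hamp was lower in YAP_OE than in LATS_KO (−1.36 ± 0.25, adjusted p = 0.0165, edgeR).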
